A study of Mus musculus with 4 samples.

Results

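The genes described here are the ion channel and neurotransmitter receptor genes of a mouse spinal cord array: 59 genes, carried by 79 spots, among 10225 genes on 18511 spots that were each assigned to 1 gene. They were taken by symbol, and the symbols cover potassium (Kcn), sodium (Scn), calcium (Cacn) and chloride (Clcn) channels, GABA-A, glutamate, nicotinic and serotonin receptors (Gabr, Gri, Chrn, Htr) and TRP channels. The choice used no measured value. The potassium channel genes made up 24 of the 59, calcium channel genes 10, TRP genes 8, and chloride channel and nicotinic receptor genes 5 each. No metabotropic glutamate or glycine receptor gene was analysed here. Among the matches, Grina and Trpc4ap encode associated proteins and no channel or receptor subunit, and several others encode auxiliary subunits.

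The tissue was spinal cord of SJL/J mice, adult and female, with AT-EAE, experimental autoimmune encephalomyelitis induced by transfer of myelin-reactive T cells, or of control mice of the same strain and sex. Each RNA extract pooled the cords of 2 mice. Each 2-colour cDNA array carried 2 extracts of 1 group, 1 per channel, and there were 2 AT-EAE and 2 control arrays, so 4 extracts stood for each group. The labels analysed here give no disease stage, cell transfer details, exact age or treatment of the controls.

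Each deposited value was treated as a log2 ratio between the 2 extracts of an array. The base of the logarithm and the channel in the numerator are not stated in the labels, so the sign can be read relative to other genes of that array and the folds hold if the base was 2. Since both extracts of an array came from 1 group, the ratios carry no difference in expression level between AT-EAE and control cord, for any gene named below. What the arrays do give for each group is which genes received a value, and how far a gene's ratio lay from 0.

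Ion channels are membrane pores that pass ions down their gradients, and they are opened by voltage, by a bound transmitter, by intracellular ions or by temperature and lipids. In spinal cord, voltage-gated sodium and potassium channels carry the axonal action potential, calcium channels trigger transmitter release, and ligand-gated receptors turn transmitter into current in motor neurons and interneurons. Glia also rely on channels: astrocytes take up potassium through inward rectifier channels, and microglia and T cells use voltage-gated and calcium-activated potassium channels.

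The first comparison asked for which of these genes each array had a value. Of the 59 genes, 33 and 26 had a value on AT-EAE arrays 1 and 2, against 45 on control array 1 and 39 on control array 2. These were 55.9% and 44.1% in AT-EAE and 76.3% and 66.1% in control, so both AT-EAE arrays lay below both control arrays. The mean share was 50.0% ± 8.39 in AT-EAE and 71.2% ± 7.19 in control (SD, n = 2 arrays each), a difference of -21.2 percentage points (2-sided exact permutation p = 0.33, the smallest that 4 arrays allow). Over all genes the share was lower in AT-EAE too. It was 72.4% and 54.9% on AT-EAE arrays 1 and 2, and 86.2% and 80.1% on control arrays 1 and 2. In pooled whole cord, fewer cells of a type and less RNA per cell cannot be told apart, and why a spot was left empty is not given in the sources used here.

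Values were fewer for channel and receptor genes than for other genes on every array. Of the 10166 other genes, 72.4% and 55.0% had a value on AT-EAE arrays 1 and 2, and 86.3% and 80.1% on control arrays 1 and 2. The channel and receptor share minus that of other genes was thus -16.5 and -10.9 percentage points on the AT-EAE arrays, and -10.03 and -14.05 points on the control arrays. These gaps overlapped between groups. Their means differed by -1.68 points between AT-EAE and control (2-sided exact permutation p = 0.667), and the direction turned to 2.86 points when spots were counted in place of genes, to 1.12 without AT-EAE array 1 and to 0.33 without control array 1.

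The number of spots per gene differed between the sets. Of the 59 channel and receptor genes, 45 (76.3%) had a single spot, against 50.3% of the other genes, and the mean number of spots was 1.34 against 1.81. Among single-spot genes the channel and receptor share with a value was 44.4% and 31.1% on AT-EAE arrays 1 and 2, and 68.9% and 57.8% on control arrays 1 and 2. For other single-spot genes it was 57.6% and 38.9% in AT-EAE, and 76.0% and 67.1% in control. Channel and receptor genes were lower on each array among single-spot genes, and this did not extend to genes with more spots. Of the 9 channel and receptor genes with 2 spots, 8 and 7 (88.9% and 77.8%) had a value on AT-EAE arrays 1 and 2, and 9 and 8 (100% and 88.9%) on control arrays 1 and 2. Other genes with 2 spots were at 82.7% and 64.5% in AT-EAE, and 94.9% and 90.3% in control, so the channel and receptor share was higher on 3 of the 4 arrays. All 5 channel and receptor genes with 3 or 4 spots (Clcn5, Clcn7, Grina, Kcnn4 and Trpm7) had a value on each of the 4 arrays. Other genes with at least 3 spots were at 94.4% and 81.0% in AT-EAE, and 99.3% and 97.8% in control. These differences within spot classes were not tested.

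**Figure D1:**
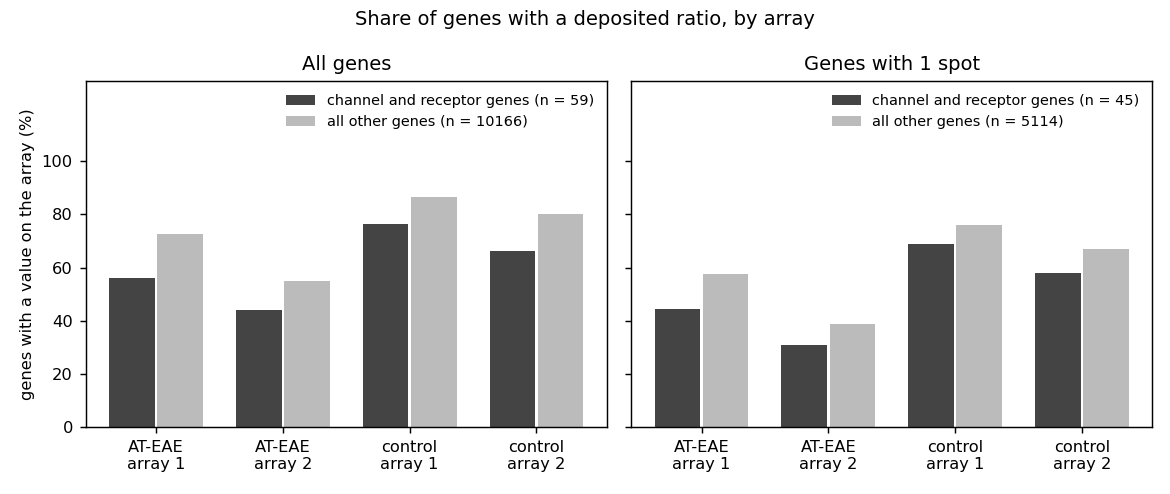
Share of genes with a deposited ratio on each array (%), for channel and receptor genes (dark bars) and all other genes (light bars), over all genes (left) and over genes with 1 spot (right). The dark bars are lower than the light ones on each array, at 55.9% and 44.1% in AT-EAE and 76.3% and 66.1% in control over all genes.

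By gene, 24 of the 59 had values on all 4 arrays, against 53.1% of all genes. Another 13 had no value on any array, against 11.9% of all genes. These 13 included the calcium channel pores Cacna1d and Cacna1g, the voltage-gated potassium channel Kcnq5, the chloride channel Clcn2, the sodium channel subunit Scn3b and the osmotically gated channel Trpv4. The others were Chrnb1, Kcne3, Kcnh3, Kcnk7, Kcnmb1, Trpc4ap and Trpm4. An empty spot does not show that a gene was not expressed.

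Values on both control arrays and on neither AT-EAE array were found for 7 genes, where 9.14% of all genes had that pattern. They were the potassium channels Kcna7, Kcnc4, Kcnd2 and Kcnh1, the NMDA receptor subunit Grin2d, the muscle nicotinic receptor subunit Chrna1 and the steroid-gated channel Trpm3. Kcnc4 had 2 spots and the others 1 each. Cacna2d1, Cacng1, Kcnj15, Kcnk6 and Trpm2 had a value on control array 1 alone. The reverse pattern, values on both AT-EAE arrays and on neither control array, was found for 0 of the 59, and for 0.127% of all genes.

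Of the 38 channel and receptor genes with values on both control arrays, 31 (81.6%) and 24 (63.2%) had one on AT-EAE arrays 1 and 2. For the 8043 other genes with both control values the shares were 87.8% and 67.8%. All 24 genes seen on AT-EAE array 2 in this set were also seen on AT-EAE array 1. For the other genes the same held for 5405 of 5457.

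Families differed in which arrays held their values. Of the 11 voltage-gated potassium channel genes, 5 had a value on each AT-EAE array and 9 on each control array. Of 10 calcium channel genes, 6 and 4 had one in AT-EAE, and 8 and 5 in control. Nicotinic receptor genes had values for 3 and 1 of 5 in AT-EAE and for 4 and 3 in control. TRP genes had them for 3 and 3 of 8 in AT-EAE, and for 5 and 4 in control. The 5 chloride channel genes had the same counts in both groups, 3 on array 1 and 4 on array 2. Over all genes, 72.4% and 54.9% had a value on AT-EAE arrays 1 and 2, and 86.2% and 80.1% on control arrays 1 and 2. Fewer values in AT-EAE were thus found over the whole array. With so few genes per family, the family counts were not tested.

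The second comparison asked how far the ratios of these genes lay from 0 and from the other genes of the array. The median absolute log2 ratio was 0.12 and 0.25 on AT-EAE arrays 1 and 2, against 0.18 and 0.15 on control arrays 1 and 2. Over all genes it was 0.12 and 0.23 in AT-EAE, and 0.12 and 0.15 in control. The mean for channel and receptor genes was 0.19 ± 0.09 in AT-EAE and 0.17 ± 0.02 in control (SD, n = 2 arrays each), and the difference, 0.02, was smaller than the array-to-array spread (exact permutation, 2-sided p = 1). AT-EAE array 2 set its direction, and without that array the difference was -0.04.

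On control array 1 the channel and receptor genes leaned to one side, with 30 of 45 below the median of all genes and a median ratio 0.10 below it. On the other arrays their median lay within 0.04 of that of all genes, at 0.04 above on AT-EAE array 1, 0.01 above on AT-EAE array 2 and 0.01 below on control array 2. The genes below the array median numbered 13 of 33 on AT-EAE array 1, 13 of 26 on AT-EAE array 2 and 20 of 39 on control array 2. On control array 1, calcium channel genes (7 of 8 below), nicotinic receptor subunits (4 of 4) and glutamate receptor genes (3 of 3) held 14 of 15 below the array median. The other families together held 16 of 30 below it. Voltage-gated potassium channels were at 5 of 9, TRP genes at 2 of 5 and auxiliary potassium channel subunits at 1 of 3. Calcium-activated potassium channels were at 2 of 2, K2P potassium channels and chloride channel genes at 2 of 3 each, and inward rectifiers at 1 of 2. The serotonin receptor was at 1 of 1, and the sodium channel and GABA-A subunits at 0 of 1 each. On AT-EAE arrays 1 and 2 the calcium, nicotinic and glutamate genes held 2 of 11 and 4 of 6 below the median, and on control array 2 7 of 11. The other families held 11 of 22, 9 of 20 and 13 of 28 on those arrays. This split of families was made after their values were seen.

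A single channel and receptor gene reached a 2-fold ratio on any array, the endosomal chloride-proton exchanger Clcn4 on control array 2. The share of all genes at that size was 0.365% and 1.07% on AT-EAE arrays 1 and 2, and 0.136% and 0.391% on control arrays 1 and 2. A finer limit was set at 2 standard deviations from the median of all genes, with that standard deviation taken as a scaled median absolute deviation (MAD). On AT-EAE array 1, Cacna1h and Kcna3 lay above it, where 2.5% of all genes did, and Trpc2 lay below it, where 6.7% did. On AT-EAE array 2 none of the 26 genes passed it in either direction, where 3.04% of all genes lay above and 3.42% below. On control array 1, Scn2b and Trpm3 lay above it (3.08% of all genes), and Trpc2, Kcnn1, Kcnn4, Kcnd2, Htr7 and Chrna5 below it (5.33%). On control array 2 none lay above it (2.13% of all genes), and Clcn4, Trpc2 and Trpm3 lay below it (5.74%).

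**Figure D2:**
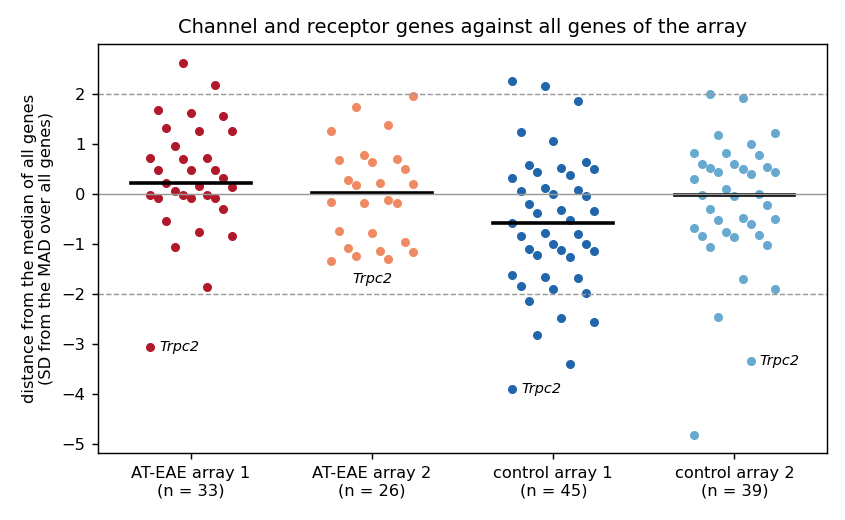
Distance of each channel and receptor gene from the median of all genes on its array, in standard deviations (scaled MAD over all genes). Points are genes, black bars are their medians, and dashed lines mark 2 standard deviations. Trpc2 lies below the lower line on 3 of the 4 arrays, and the points of control array 1 lean below 0.

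The gene with the largest mean ratio in size among the 24 with values on all 4 arrays was Trpc2, a cation channel known in mouse for pheromone sensing by vomeronasal neurons. Its log2 ratio was -0.52 and -0.49 on AT-EAE arrays 1 and 2, and -0.69 and -0.76 on control arrays 1 and 2. All 4 values came from 1 of its 2 spots, and the other spot had no value on any array. The arrays shared their channels and no extract. In limma the ratio shared by all arrays was -0.61 ± 0.09 (SE), with an adjusted p of 0.0937. Its p ranked the fourth lowest among the 5429 genes with 4 values. It missed the 0.05 threshold. Under the alternatives that kept all 4 arrays the adjusted p in limma ranged between 0.00312 and 0.115. It was under the threshold when genes with 3 values were also tested (0.0289) and with a replicate block (0.00312). With that block the SE was 0.138 for Trpc2 and also for Kcnk5, Scn2b and Kcnd3. The p with the block thus does not reflect the spread of Trpc2 itself between arrays. The labels do not pair the arrays by number. Under the other alternatives with all arrays the adjusted p in limma was above the threshold, between 0.0545 with the block crossed and 0.115 with medians over spots. When an array was left out the shared ratio lay between -0.63 and -0.60.

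By limma 0 of the 24 channel and receptor genes with 4 values had a ratio shared by all arrays at an adjusted p under 0.05, where 0.0184% of all genes were called. At an unadjusted p under 0.05 there were 3 of 24, against 11.2% of all genes. Besides Trpc2, these were the K2P potassium channel Kcnk5, with a shared ratio of -0.25 ± 0.10 (SE, adjusted p = 0.413 in limma), and the sodium channel beta subunit Scn2b, at 0.23 ± 0.09 (SE, adjusted p = 0.413 in limma). For the difference of the ratio between AT-EAE and control arrays, 0 of 24 were called by limma (0.0184% of all genes), and 0 of 24 had an unadjusted p under 0.05, against 3.46% of all genes. Scn2b had the lowest p of the 24 for that difference, at 0.071 unadjusted (adjusted p = 0.995 in limma).

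Ratios were negative on all 4 arrays for 2 of the 24 genes (Trpc2 and Kcnk5), against 11.9% of all genes. They were positive on all 4 for 2 (Kcnd3 and Trpm7), against 10.3% of all genes. Both AT-EAE ratios lay above both control ratios for Cacnb1, Kcna3 and Trpc2, against 13% of all genes, and below them for Scn2b, against 17.3% of all genes. The counts among channel and receptor genes are close to or under these shares.

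**Figure D3:**
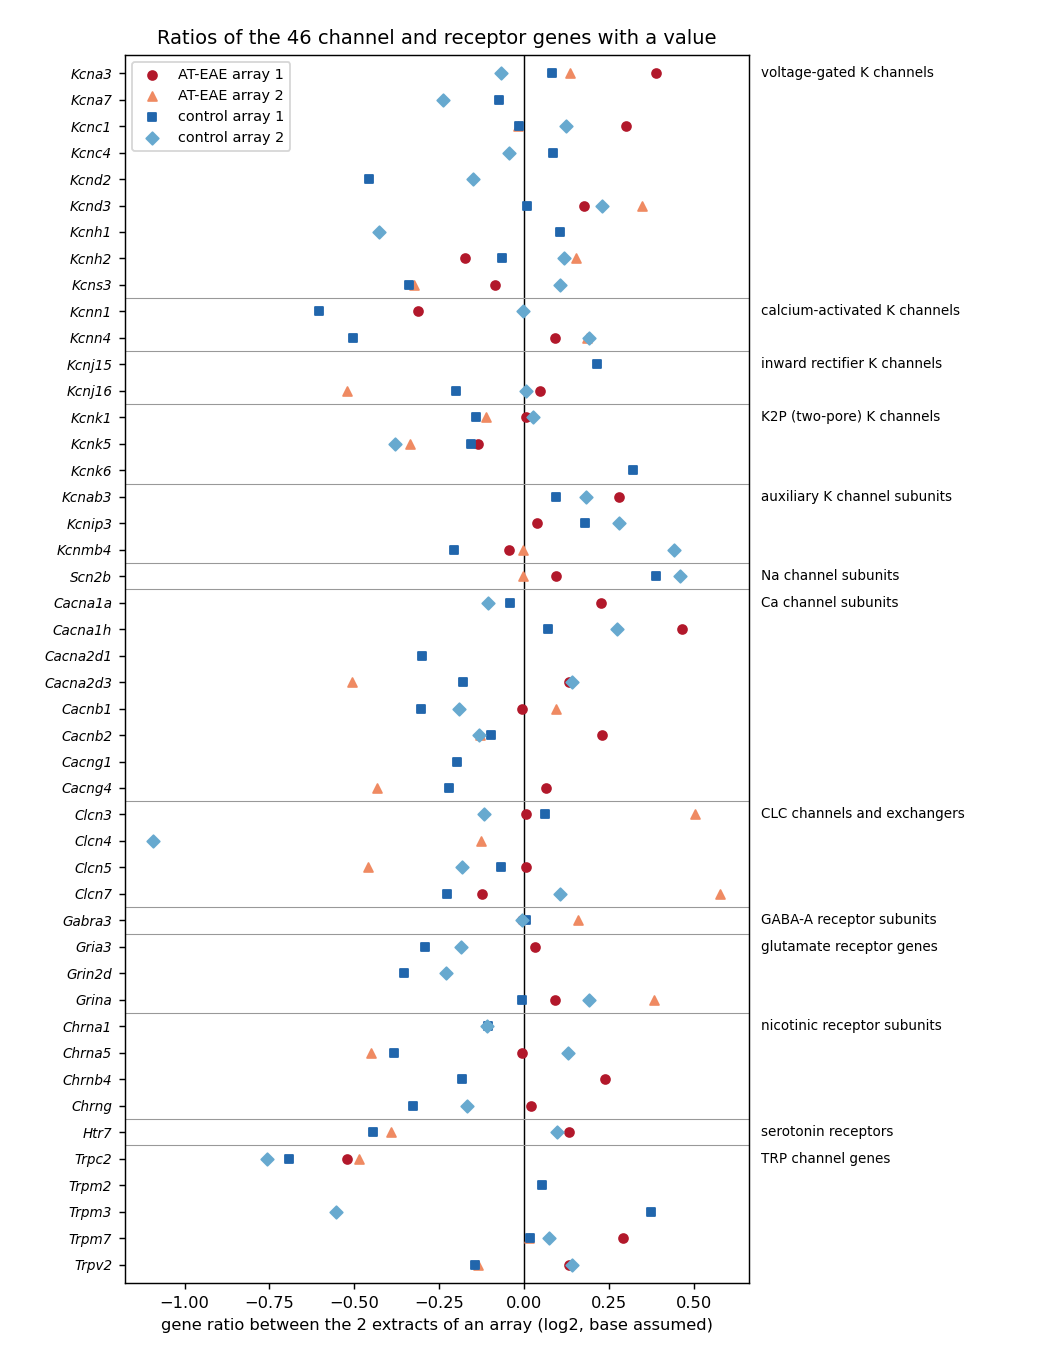
Log2 ratios (base assumed) of the 46 channel and receptor genes with a value on at least 1 array, each row a gene and each symbol an array, in family order. Trpc2 sits between -0.76 and -0.49 on all 4 arrays, Clcn4 reaches -1.09 on control array 2, and most other points lie within 0.5 of 0.

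Among the voltage-gated potassium channels, Kcnd3, a pore subunit of the fast inactivating A-type current, was at 0.17 and 0.35 on AT-EAE arrays 1 and 2 and at 0.0071 and 0.23 on control arrays 1 and 2. Its shared ratio was 0.19 ± 0.10 (SE, adjusted p = 0.504 in limma). Kcna3, a channel of T cells and microglia as well as of neurons, was at 0.39 and 0.13 in AT-EAE and at 0.08 and -0.07 in control. Both AT-EAE values of Kcna3 lay above both control values, though the AT-EAE arrays differed more from each other than the nearer one did from control array 1. Kcnc1, which lets interneurons fire fast, was at 0.30 and -0.02 in AT-EAE and at -0.01 and 0.12 in control. Kcnh2, a pore of the slowly closing ERG current, was at -0.18 and 0.15 in AT-EAE and at -0.06 and 0.12 in control. Kcns3, a silent subunit that modifies other channels, was at -0.09 and -0.32 in AT-EAE and at -0.34 and 0.10 in control. Each of these 3 changed sign between arrays of 1 group.

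The voltage-gated genes with control values alone lay on both sides of 0. Kcnd2, the partner of Kcnd3 in A-type channels, was at -0.46 and -0.15 on control arrays 1 and 2. Kcna7, a channel of heart and skeletal muscle, was at -0.07 and -0.24. Kcnh1 was at 0.11 and -0.43, and Kcnc4 at 0.08 and -0.05. Neither Kcnh1 nor Kcnc4 kept its sign between the control arrays.

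The calcium-activated channels Kcnn1 and Kcnn4 were both low on control array 1. Kcnn1, a small-conductance channel of the neuronal afterhyperpolarization, was at -0.31 on AT-EAE array 1 and at -0.60 and -0.0028 on control arrays 1 and 2, and it had no value on AT-EAE array 2. Kcnn4, the intermediate-conductance channel of T cells and microglia, was at 0.09 and 0.18 in AT-EAE and at -0.50 and 0.19 in control. Its control array 1 value was the mean of 2 spots that stood far apart, at -0.07 and -0.94. On AT-EAE array 1 its 2 spots were at 0.27 and -0.09.

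Of the inward rectifiers, Kcnj16, whose product joins other inward rectifier subunits in astrocytes, was at 0.05 and -0.52 in AT-EAE and at -0.20 and 0.0048 in control. The AT-EAE array 2 value came from 1 of its 2 spots. Kcnj15 had a value on control array 1 alone, at 0.21. The groups of Kcnj16 values overlapped.

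The K2P channels set the resting potential as leak pores. Kcnk5, an acid-sensitive member, was at -0.14 and -0.34 in AT-EAE and at -0.16 and -0.38 in control, below 0 on each array from its single spot. Kcnk1 stayed nearer 0, at 0.0037 and -0.11 in AT-EAE and at -0.14 and 0.02 in control. Its 2 spots on AT-EAE array 2 were at -0.56 and 0.33, so that its small mean there hides opposite values. Kcnk6 had a value on control array 1 alone, at 0.32.

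Auxiliary potassium channel subunits included Kcnab3, a cytoplasmic beta subunit, at 0.28 on AT-EAE array 1 and at 0.09 and 0.18 on control arrays 1 and 2. Kcnip3, a calcium-binding protein that joins A-type channels and also acts as a transcriptional repressor, was at 0.04 on AT-EAE array 1 and at 0.18 and 0.28 on the control arrays. Both were positive on the 3 arrays that measured them. Kcnmb4, the neuronal beta subunit of large-conductance calcium-activated channels, was at -0.05 and -0.0050 in AT-EAE and at -0.21 and 0.44 in control.

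Scn2b, a cell-adhesive beta subunit of sodium channels at nodes of Ranvier, was at 0.09 and -0.0038 on AT-EAE arrays 1 and 2 and at 0.39 and 0.46 on control arrays 1 and 2. Both control values were higher than both AT-EAE values. It rested on 1 spot, and the 4 pairs of extracts came from different pools. The difference of these ratios, -0.38 ± 0.19 (SE, AT-EAE minus control), did not pass in limma, as given above, and it is no difference in expression.

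The calcium channel pores with values were Cacna1a, the main pore behind fast transmitter release, and Cacna1h, a low-voltage-activated pore. Cacna1a was at 0.23 on AT-EAE array 1 and at -0.04 and -0.11 on control arrays 1 and 2. Cacna1h was at 0.46 on AT-EAE array 1, the highest of the 33 channel and receptor genes there, and at 0.07 and 0.27 in control. Neither had a value on AT-EAE array 2.

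Auxiliary calcium channel subunits, which carry pores to the membrane, were measured more often. Cacnb1 was at -0.0059 and 0.09 in AT-EAE and at -0.30 and -0.19 in control, with both AT-EAE values higher. Cacnb2 was at 0.23 and -0.13 in AT-EAE and at -0.10 and -0.13 in control, so its groups overlapped. Cacna2d3 was at 0.13 and -0.51 in AT-EAE and at -0.18 and 0.14 in control, with a spread within each group that exceeded the distance between them. Cacng4, a subunit of the family that also traffics AMPA receptors, was at 0.06 and -0.43 in AT-EAE and at -0.22 on control array 1. Cacna2d1, the target of gabapentin, was at -0.30 and the muscle subunit Cacng1 at -0.20 on control array 1, the array on which each had its value.

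Chloride-proton exchangers of the CLC family acidify endosomes and lysosomes. Clcn7, the lysosomal member, was at -0.12 and 0.58 in AT-EAE and at -0.23 and 0.10 in control. The value on AT-EAE array 2 was the highest of the 26 channel and receptor genes there, and its 2 spots were at 0.78 and 0.37. Clcn3 was also high on that array, at 0.50, with 0.0049 on AT-EAE array 1 and 0.06 and -0.12 on control arrays 1 and 2. Clcn5 went the other way there, at -0.46 from spots at -0.75 and -0.16, with 0.0058 on AT-EAE array 1 and -0.07 and -0.18 in control. Members of this family thus lay on opposite sides of 0 on AT-EAE array 2. Clcn4, from 1 spot, was at -0.13 on AT-EAE array 2 and at -1.09 on control array 2.

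Receptor genes were few. Gabra3, a subunit of GABA-A receptors, had ratios near 0, at -0.0068 and 0.16 in AT-EAE and 0.0041 and -0.0063 in control. Gria3, an AMPA receptor subunit, was at 0.03 on AT-EAE array 1 and at -0.29 and -0.19 on control arrays 1 and 2. Grin2d, an NMDA receptor subunit, was at -0.35 and -0.23 in control and had no AT-EAE value. Grina was at 0.09 and 0.38 in AT-EAE and at -0.0071 and 0.19 in control, and its 3 spots on AT-EAE array 2 ranged between 0.03 and 0.82.

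Nicotinic receptor subunits include those of muscle and those of neurons. The neuronal subunit Chrna5 was at -0.0073 and -0.45 in AT-EAE and at -0.38 and 0.13 in control. Chrnb4, which forms receptors with it, was at 0.24 on AT-EAE array 1 and at -0.18 on control array 1. The fetal muscle subunit Chrng was at 0.02 on AT-EAE array 1 and at -0.33 and -0.17 in control, and Chrna1 was at -0.11 on both control arrays. Htr7, a serotonin receptor that raises cyclic AMP, was at 0.13 and -0.39 in AT-EAE and at -0.44 and 0.10 in control. Chrna5 and Htr7, the ones with 4 values, each changed sign between arrays.

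Among the other TRP genes, Trpm7, a magnesium-permeable channel fused to a kinase, was at 0.29 and 0.02 in AT-EAE and at 0.02 and 0.07 in control. Its means rested on 2 spots and 1 spot on AT-EAE arrays 1 and 2 and on 4 spots on each control array. The 4 control array 2 spots ranged between -0.41 and 0.34. Trpv2 was at 0.13 and -0.14 in AT-EAE and at -0.15 and 0.14 in control, so that each group held 1 positive and 1 negative value. Trpm3 was at 0.37 and -0.56 on control arrays 1 and 2, the widest gap between the control arrays among these genes. Trpm2, opened by oxidative stress, was at 0.05 on control array 1.

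Spots of the same gene differed less than different genes did on AT-EAE array 1 and on both control arrays, and more on AT-EAE array 2. The standard deviation between spots of a channel or receptor gene was 0.13 for AT-EAE array 1 (8 genes with at least 2 measured spots) and 0.43 for the second (5 genes), against 0.22 on control array 1 (10 genes) and 0.20 on control array 2 (8 genes). The standard deviation between the genes, over all of them with a value, was 0.19 and 0.32 on the AT-EAE arrays and 0.24 and 0.30 on the control arrays. On AT-EAE array 2 the spread between spots was thus larger than that between genes. Most values above rest on 1 spot, for which no such error can be given.

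**Figure D4:**
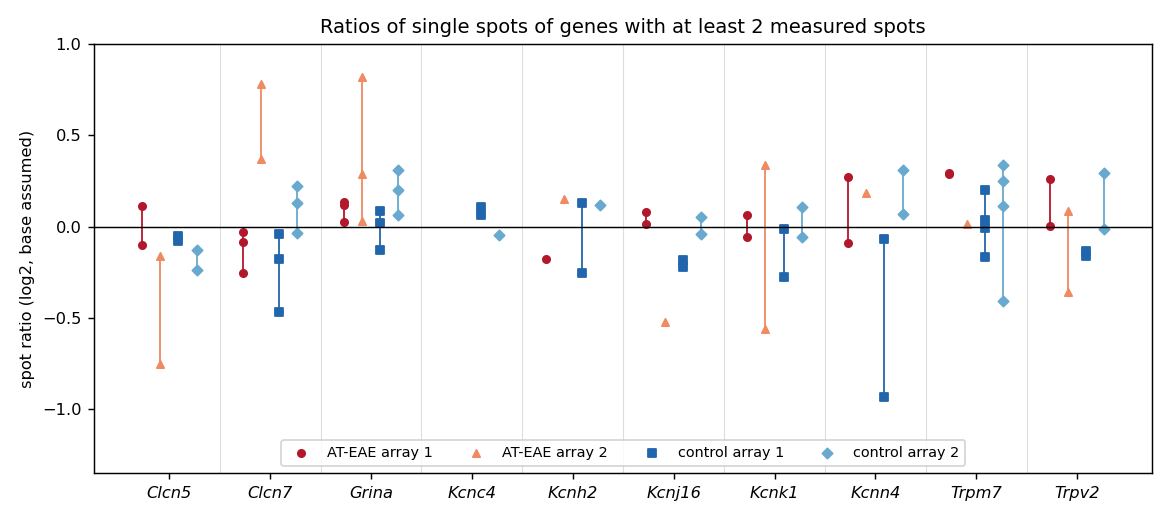
Log2 ratios (base assumed) of single spots for the 10 channel and receptor genes with at least 2 measured spots on some array, with lines joining the spots of a gene on 1 array. The spots of Kcnk1 on AT-EAE array 2 lie at -0.56 and 0.33, and those of Kcnn4 on control array 1 at -0.07 and -0.94.

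Genes that work with these channels were followed through 3 further lists. Of 17 channel genes outside the symbols above, such as the mitochondrial porins Vdac1 to Vdac3, 14 and 12 had values on AT-EAE arrays 1 and 2, and 15 and 14 on control arrays 1 and 2. Of 17 synaptic scaffold and anchoring genes, such as Dlg1 and Ank3, 13 and 11 had values in AT-EAE, and 15 and 13 in control. Of 14 genes for transmitter synthesis, transport and release, such as the vesicular GABA transporter Slc32a1 and Syn1, 13 and 11 had values in AT-EAE, and 13 and 12 in control. Each list thus kept a larger share of values than the channel and receptor genes on every array, and these shares were not tested. Over all genes the shares were 72.4% and 54.9% on AT-EAE arrays 1 and 2, and 86.2% and 80.1% on control arrays 1 and 2. Each list lay above these, except the scaffold list on control array 2 (76.5%). The lists were not matched to the channel and receptor genes by spots per gene. The medians of the first 2 lists lay between 0.07 below and 0.13 above that of all genes on the 4 arrays. The transmitter list lay 0.05 and 0.28 above it on AT-EAE arrays 1 and 2, and 0.05 and 0.10 above it on control arrays 1 and 2.

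Marker genes of cell types were followed in the same way, and their values and ratios do not measure tissue composition. The shares of all genes with a value are given above. Of 7 neuron markers, 6 and 5 had values on the AT-EAE arrays and all 7 on each control array, and the oligodendrocyte markers Mbp, Cnp and Mal had values on all 4. Of 5 microglia and macrophage markers, 5 and 3 had values in AT-EAE, and 4 and 5 in control. On AT-EAE array 1 those 5 lay below the median of all genes, at a list median 0.28 lower. The 3 oligodendrocyte markers also lay below it there, at a list median 0.22 lower, as did 4 of 6 neuron and 3 of 5 astrocyte markers. Kcna3, from 1 spot, and Kcnn4 lay 0.38 and 0.08 above it on that array. The Kcnn4 value there was the mean of spots at 0.27 and -0.09. The part of microglia and macrophages in the ratios of Kcna3 and Kcnn4 there was not tested. The 1 T cell marker gene had a value on none of the 4 arrays. Of 7 listed skeletal muscle markers 2 were on the array, Mylpf with a value on all 4 arrays and Ckm on the control arrays. The muscle subunit Chrng had values on 3 arrays, and Chrna1 and Kcna7 on the control arrays. The muscle subunit Cacng1 had a value on control array 1 alone, and the nicotinic subunit Chrnb1 had none on any array.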

How the data were processed

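The deposited values of the authors, 1 per spot and array, were treated as log2 ratios of the 2 channels' normalized signals; per the labels, green and red normalized signals were compared. The base is an assumption, from signed values with medians near 0. Background correction, spot filter and software are not stated there. Of 28704 spots, 18511 named 1 gene in the platform annotation, 937 several and 9256 none. Symbols were updated through gene identifiers to the GRCm38.p6 table for 18267 spots. Spots naming several genes (8 with a channel symbol) were left out. A gene's ratio was its mean over spots with a value. Columns of no sample numbered 0.

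Shares and median absolute ratios were compared by exact permutation over the 6 splits of the 4 arrays. Ratios of genes with 4 values were fitted across all genes in limma 3.58.1 (R 4.3.3), with Benjamini-Hochberg adjustment at 0.05, and the limma script was tested on simulated data. Python 3.11.15, numpy 2.4.6, pandas 2.3.3 and matplotlib 3.10.9 were used. With 2 arrays in a group precision is limited by their number, and p-values measure the spread between arrays. With the replicate block, Trpc2, Kcnk5, Scn2b and Kcnd3 shared 1 SE, as given above. Alternatives covered the unit counted, single-spot genes, spot means or medians, centring and scaling, the number of values required, robust variance, a replicate block and leaving out each array. Genes named are those called, extreme, at least 2-fold or the best covered of their family, those with values in 1 group alone, and genes listed by function; further members were named after their values were seen. The members and lists were chosen with earlier results of these data known.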

Additional observations from a re-analysis of the deposited data

How the results depend on the processing

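The lower share of channel and receptor genes with a value in AT-EAE kept its direction under every alternative run, at -22.2 percentage points by spots, -25.6 for single-spot genes, -21.9 without Grina and Trpc4ap, and between -27.1 and -15.3 when an array was left out. Fewer values in AT-EAE were found over the whole array as well, as given above. The gap to other genes, -1.68 points, turned to 2.86 by spots and lay between -4.48 and 1.12 when an array was left out, with 1.12 without AT-EAE array 1 and 0.331 without control array 1. The difference in median absolute ratio, 0.02, turned to -0.11 when each array was scaled by the spread of all genes and lay between -0.042 and 0.087 when an array was left out, at -0.042 without AT-EAE array 2. The cause of these turns was not tested. Over all genes, limma called 1 gene for a shared ratio, against 3 by spots, 13 with genes of at least 3 values and 41 with a replicate block, and between 3 and 197 when an array was left out. For the difference of ratios between groups it called 1 gene, against 0 by spots (265 at an unadjusted p under 0.05), 3 with at least 3 values and 6 with a replicate block, and between 1 and 53 when an array was left out, the largest counts being those without AT-EAE array 1 (197 and 53). Trpc2 alone among channel and receptor genes was called for a shared ratio in some of these, and no channel or receptor gene was called for the difference. Deviations of same-numbered arrays from their group means correlated at -0.29 over 5429 genes. With 2 arrays per group the crossed pairing gives 0.29 by construction, and the numerator channel is not stated. This value therefore cannot decide whether the numbers pair the arrays. With the pairing crossed, chosen after seeing the data, limma called 1 gene in each comparison. Signal over background was not analysed here.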

Other observations

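The ratios of channel and receptor genes were compared between arrays that share no extract, as Pearson's r across the genes measured on both, for all 6 pairs of arrays. Between AT-EAE array 1 and control array 1 it was 0.59 across 33 genes and 0.47 without Trpc2, against 0.15 across all genes. Between AT-EAE array 1 and control array 2 it was 0.46 across 31 genes and 0.19 without Trpc2, against 0.31 across all genes. Between AT-EAE array 2 and control array 1 it was 0.42 across 25 genes and 0.34 without Trpc2, against 0.30 across all genes. Between AT-EAE array 2 and control array 2 it was 0.26 across 25 genes and 0.15 without Trpc2, against 0.0018 across all genes. Between the 2 AT-EAE arrays it was 0.17 across 25 genes and 0.0064 without Trpc2, against 0.19 across all genes. Between the 2 control arrays it was 0.20 across 38 genes and 0.02 without Trpc2, against 0.11 across all genes. Without Trpc2 the channel and receptor value was thus above that of all genes in 3 pairs and below it in the other 3. These are correlations across genes, which are not independent replicates, and all arrays share their channels and spots.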
